A study of Homo sapiens with 4 samples.

Results

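The SR splicing factor genes are described here as 10 genes, found by symbol among the 60708 genes of the count table: SRSF1 to SRSF7, SRSF9, SRSF10 and SRSF11. The 4 libraries were TT-seq libraries, in which newly made RNA was tagged with 4-thiouridine during 20 min, then fragmented and pulled down before sequencing, and counts were taken over whole genes, introns included. All libraries came from HEK293 cells, a human embryonic kidney line, of the genotype RPB1 degron, whose own RPB1 can be destroyed by adding auxin. Cells were transiently transfected with a plasmid for RPB1 with either the 52X WT CTD (2 libraries) or a CTD in which each repeat carried T4A, called 52X T4A here (2 libraries), and all were kept in auxin for 48 h, starting 48 h after transfection. Both groups thus shared the degron and the auxin, and differed by the transfected CTD. Neither untransfected cells nor cells without auxin were analysed here. The labels give no culture or day for a replicate, so p-values measure the spread between these libraries, which may be technical.

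SR proteins are RNA-binding proteins with RNA recognition motifs at the N terminus and a tail rich in arginine-serine dipeptides. They bind exons and recruit the U1 and U2 machinery to the flanking splice sites, and several shuttle to the cytoplasm and aid mRNA export. The tails are phosphorylated by SRPK and CLK kinases, and SR proteins bind the phosphorylated CTD of RNA polymerase II. Most SR genes limit their own expression by splicing in a poison exon, which sends the transcript to nonsense-mediated decay. Counts of labeled RNA over the whole gene, as used here, do not separate these splice forms.

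Of the 10 genes, 8 were counted over nearly their whole span and 2 were hardly counted at all. SRSF1 (chromosome 17 of GRCh38, from 58000919 to 58007346, minus strand) and SRSF6 (chromosome 20, from 43457893 to 43466046, plus strand) each lie almost wholly inside another listed gene of the same strand. featureCounts by default assigns no read that lies over 2 genes, and although the setting used is not given in the sources used here, both genes were listed with 63 counts or fewer where the other SR genes had at least 2460. Under that setting, with reads counted by strand, 100 of 6428 bp were countable for SRSF1 and 161 of 8154 bp for SRSF6. Both stretches are at the 5′ end of the gene. The other 8 genes kept between 96.9% and 100% of their span. The sequences around both stretches are shown because they hold the whole of what could be counted for SRSF1 and its first bases for SRSF6. They are RefSeq promoter windows of GRCh38.p14, printed 5′ to 3′ on the gene's strand from 250 bases before to 30 bases after the RefSeq start, at chr17:58007217-58007496 and chr20:43457646-43457925, and the capitals mark the part of the countable stretch that falls inside the window.
SRSF1: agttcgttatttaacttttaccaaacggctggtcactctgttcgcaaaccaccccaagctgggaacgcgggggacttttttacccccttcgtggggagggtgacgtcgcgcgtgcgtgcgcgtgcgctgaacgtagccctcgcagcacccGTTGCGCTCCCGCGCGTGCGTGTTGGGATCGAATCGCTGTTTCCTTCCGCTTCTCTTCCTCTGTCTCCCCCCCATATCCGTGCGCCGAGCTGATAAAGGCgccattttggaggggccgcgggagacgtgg
SRSF6: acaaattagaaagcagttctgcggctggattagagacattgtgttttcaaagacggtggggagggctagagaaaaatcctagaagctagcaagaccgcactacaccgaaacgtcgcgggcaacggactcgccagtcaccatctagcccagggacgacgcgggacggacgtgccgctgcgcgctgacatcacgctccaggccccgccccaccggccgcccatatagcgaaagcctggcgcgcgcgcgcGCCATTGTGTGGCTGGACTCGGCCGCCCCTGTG
The capitals for SRSF1 cover its full stretch of 100 bases, which lies just upstream of the RefSeq start. For SRSF6 they cover the first 33 bases.

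**Figure D1:**
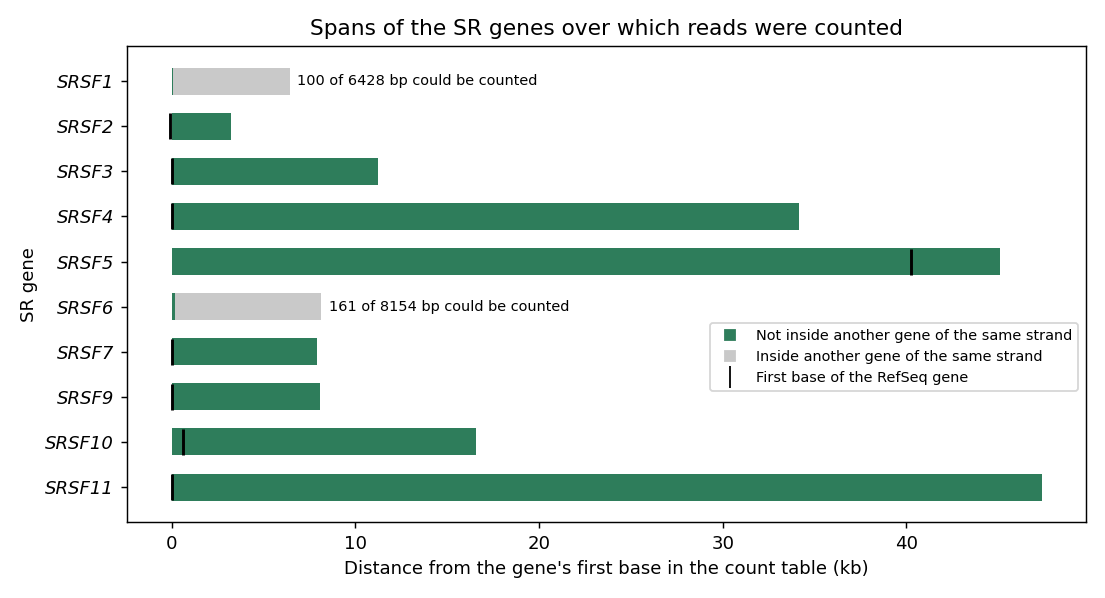
Horizontal bars give the listed span of each of the 10 SR genes in kb from its first base in the count table, green where no other gene of the same strand lies over it and grey where one does. Black ticks mark the RefSeq start for the 8 genes counted over their body. SRSF1 and SRSF6 are grey but for 100 and 161 bp, and the RefSeq start of SRSF5 lies 40242 bp inside its listed span.

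The map of the spans shows a further difference for SRSF5 (chromosome 14, from 69726900 to 69772005). Its listed span is 45106 bp, whereas the RefSeq gene is 4864 bp long and sits at the 3′ end of that span, so reads up to 40242 bp upstream of the RefSeq start were counted with it. SRSF10 starts 600 bp before the RefSeq gene. For SRSF3, SRSF4, SRSF7, SRSF9 and SRSF11 the starts differ by 14 bp or less. On the other strand, SRSF2 is wholly covered by ENSG00000267168 and in part by MFSD11, and 25.7% of SRSF9 is covered by GATC. SRSF2 was still listed with at least 5376 counts, which under the default setting above is possible only if reads were counted by strand.

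SRSF1, the founding member of the family, was listed with 15 counts in each WT library, 0 in T4A replicate 1 and 12 in T4A replicate 2. SRSF6, a member with a pair of RNA recognition motifs, was listed with 63 and 52 counts in WT, 0 in T4A replicate 1 and 57 in T4A replicate 2. A count of 0 among 33853507 allows up to 3 counts, or 6 if both reads of each pair were counted, counting error only. In both genes T4A replicate 2 was close to WT and T4A replicate 1 stood alone at 0, so the groups overlapped. In that library 22 genes were listed at 0 although the 4 libraries together held at least 60 counts, against 0, 1 and 0 genes in WT replicates 1 and 2 and T4A replicate 2. The log2 fold change of T4A over WT was -1.03 for SRSF1 (95% confidence interval -3.29 to 1.23) and -0.75 for SRSF6 (-3.04 to 1.54). Without T4A replicate 1 the values were -0.05 and 0.25. These counts say next to nothing about transcription of either gene body.

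The genes that cover SRSF1 and SRSF6 gave more counts, from sequence beside the listed SR genes. ENSG00000266086, from 57989038 to 58007246, has the same start and end as SRSF1 in RefSeq, and its countable part of 6069 bp lies downstream of the listed SRSF1. It held 3894 and 4009 counts in WT and 3965 and 3785 in T4A, or 99.5 and 90.9 normalized CPM in WT and 118 and 109 in T4A. Normalized CPM are CPM values on library totals scaled by TMM. Both T4A libraries were above both WT libraries (log2 fold change 0.26, SE 0.09, adjusted p = 0.269 in edgeR by quasi-likelihood). ENSG00000288000, which covers SRSF6 and runs past L3MBTL1, had 23.6 and 22.9 normalized CPM in WT and 34.1 and 28.5 in T4A (log2 fold change 0.43, SE 0.13, adjusted p = 0.232 from edgeR's test). It was countable over 27.8% of its span. Neither gene passed an adjusted p-value of 0.05. Their unadjusted p-values from edgeR's test were 0.0229 and 0.00888. Of all tested genes, 7.45% were higher at an unadjusted p-value below 0.05. The counts of neither gene belong to the listed SR gene itself.

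Among the 8 counted genes, both T4A libraries were above both WT libraries for 7 and below for 1, SRSF9. Over all 23321 tested genes T4A was above in 24.8% and below in 24.7%. None of the 10 SR genes passed an adjusted p-value of 0.05 in edgeR, where 0.00429% of all tested genes did. At an unadjusted p-value below 0.05, SRSF3, SRSF5 and SRSF7 were higher and none was lower, beside 7.45% of all tested genes higher and 8.02% lower. DESeq2 called the same 3 genes at an adjusted p-value below 0.05, with 3.9% of all tested genes called. That share is over all 23321 genes, although DESeq2 gave some, SRSF1 and SRSF6 among them, no adjusted p-value. SRSF3, SRSF5, SRSF7 and SRSF10 were higher at an unadjusted p-value below 0.05 in DESeq2, as were 4.96% of all tested genes. With replicate number as a block in edgeR, 0 of the 10 passed the adjusted threshold, where 2.29% of all tested genes did. At an unadjusted p-value below 0.05 with that block, 0 SR genes were higher and 1, SRSF6, was lower, beside 1589 and 1706 of 23321 tested genes. With edgeR scaled to mitochondrially encoded genes, 0 were higher and 0 lower, beside 1334 and 1155. Whether SRSF3, SRSF5 and SRSF7 are called thus depends on the tool, and their unadjusted p-values on the model and scaling.

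**Figure D2:**
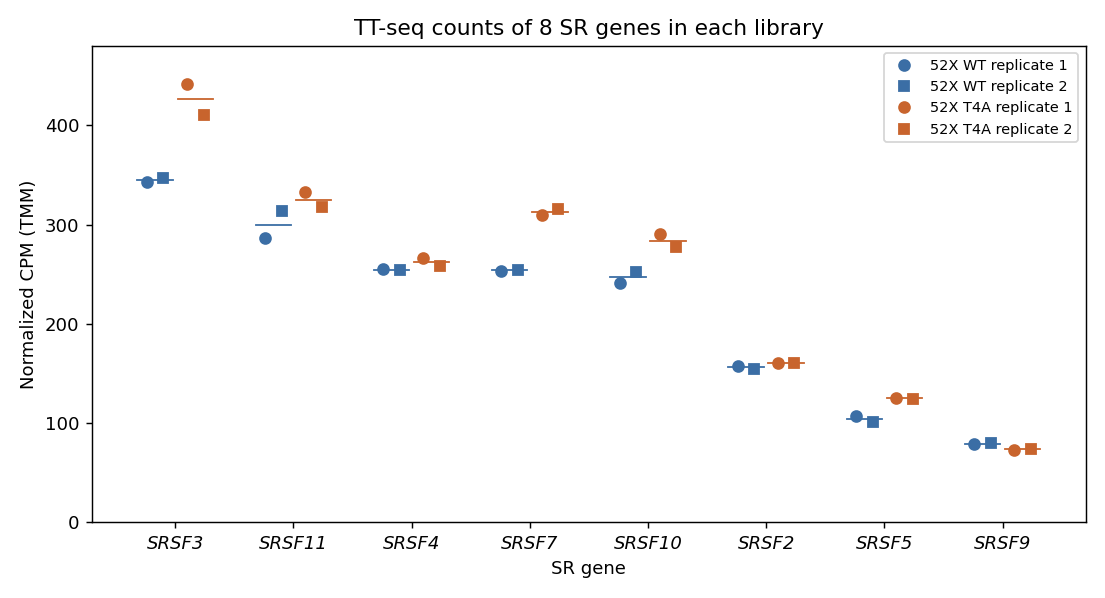
The y axis gives normalized CPM for each of the 4 libraries (circles replicate 1, squares replicate 2, blue 52X WT, orange 52X T4A, short lines the mean of 2 libraries) for the 8 SR genes whose body was counted. The gap between groups is wider than that between replicates for SRSF3, SRSF7, SRSF5, SRSF10 and SRSF9. For SRSF9 the T4A points lie just below the WT points.

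SRSF3 and SRSF7 are a related pair of small SR proteins with one RNA recognition motif each, and both hand spliced mRNA to the export receptor NXF1. SRSF3 (chromosome 6, from 36594353 to 36605600) had 343 and 347 normalized CPM in the WT libraries and 442 and 410.1 in the T4A libraries. The means were 345 ± 2.37 (SD, n = 2) and 426 ± 22.6 (SD, n = 2). The T4A replicates differed by 0.11 on the log2 scale and the WT replicates by 0.01, both less than the distance between the groups. The fold change was 1.24 with a 95% confidence interval of 1.05 to 1.45 (log2 fold change 0.30, SE 0.10, adjusted p = 0.252 from edgeR's test, 0.00460 from DESeq2).

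SRSF7 (chromosome 2, from 38743599 to 38751494) had 253.6 and 253.9 normalized CPM in the WT libraries and 309.8 and 315 in the T4A libraries. The replicates of each group lay closer together than those of SRSF3, with means of 254 ± 0.179 (SD, n = 2) in WT and 313 ± 3.93 (SD, n = 2) in T4A. The fold change was 1.23, with an interval of 1.06 to 1.43 (log2 fold change 0.30, SE 0.09, adjusted p = 0.241 from edgeR's test, 0.00405 from DESeq2). The pair thus had nearly the same difference in size, and neither met the threshold in edgeR.

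SRSF4, SRSF5 and SRSF6 form a branch of the family in which each protein has a pair of RNA recognition motifs. SRSF5 had 107 and 101 normalized CPM in WT and 125 and 124 in T4A, or 104 ± 4.12 and 125 ± 0.784 (SD, n = 2 each). Its fold change was 1.20 (interval 1.05 to 1.38, log2 fold change 0.27, adjusted p = 0.246 from edgeR's test, 0.0387 from DESeq2). SRSF4 (chromosome 1, from 29147743 to 29181900) had 255 and 254 normalized CPM in WT and 266 and 259 in T4A. The 4 values were close to each other, and the fold change was 1.03 (interval 0.891 to 1.19, adjusted p = 0.841 from edgeR's test). SRSF6 could not be compared with them, as its body was not counted.

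SRSF10 and SRSF11 stand somewhat apart from the classical SR proteins. SRSF10, known as a splicing repressor when its tail is dephosphorylated in mitosis or after heat shock, lies on chromosome 1 from 23964347 to 23980927. It had 241 and 252 normalized CPM in WT and 290.2 and 277 in T4A. The groups were apart, and the fold change of 1.15 had an interval from 0.990 to 1.33 (log2 fold change 0.20, SE 0.09, adjusted p = 0.349 from edgeR's test, 0.102 from DESeq2). SRSF11, on chromosome 1 from 70205682 to 70253052, had 286 and 314 normalized CPM in WT and 332 and 318 in T4A. WT replicate 2 came near the lower T4A library, and the fold change of 1.08 (interval 0.925 to 1.27, adjusted p = 0.592 from edgeR's test) fell to a log2 value of 0.04 without WT replicate 1.

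SRSF2 and SRSF9 were close to even between the groups. SRSF2 lies on chromosome 17 from 76734115 to 76737333 and had 158 and 154 normalized CPM in WT and 160.2 and 161 in T4A. The fold change was 1.03 (interval 0.900 to 1.18, adjusted p = 0.833 from edgeR's test). MFSD11, on the other strand over 1469 bp of SRSF2, had 44.3 and 39.2 normalized CPM in WT and 52.6 and 51.2 in T4A. Counting by strand would leave its reads out of the SRSF2 value, and its part was not tested. SRSF9, a close relative of SRSF1 on chromosome 12 from 120461672 to 120469748, had 78.8 and 79.5 normalized CPM in WT and 73.3 and 73.5 in T4A. It was the member with both T4A libraries below WT, with a fold change of 0.927 (interval 0.812 to 1.06, adjusted p = 0.548 from edgeR's test). GATC, which overlaps SRSF9 on the other strand, was also lower in both T4A libraries, at 20.0 and 18.4 normalized CPM against 23.2 and 21.7. Its reads would likewise stay out of the SRSF9 value under counting by strand, and its part was not tested.

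**Figure D3:**
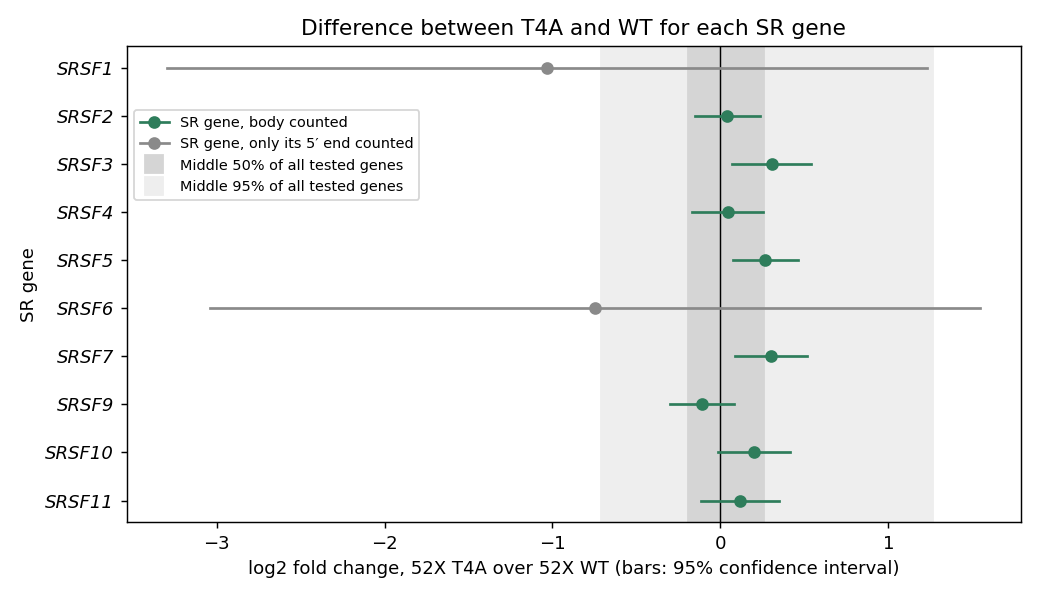
Points give the log2 fold change of 52X T4A over 52X WT for each of the 10 SR genes and bars the 95% confidence interval from edgeR, green for genes counted over their body and grey for SRSF1 and SRSF6, and shaded bands give the middle 50% (-0.19 to 0.26) and 95% (-0.71 to 1.27) of all tested genes. The intervals of SRSF3, SRSF5 and SRSF7 lie above 0, and those of the 8 counted genes all lie inside the wider band.

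As a group, the 8 counted genes had a median log2 fold change of 0.16, where that of all tested genes was -0.00076. Their values ran from -0.11 for SRSF9 to 0.30 for SRSF3. With SRSF1 and SRSF6 included the median was 0.08. Relative to the mean of the WT libraries, the median of the 8 genes stood at 0.19 and 0.13 in the T4A libraries and at -0.00386 and 0.00386 in the WT libraries. All 10 genes together held 0.172% and 0.170% of the counts of the WT libraries and 0.198% and 0.202% of those of the T4A libraries. These shares are of raw library totals, whereas the medians above were scaled by TMM. Of single genes, SRSF3 had the highest log2 fold change of the 8, and 77.6% of all tested genes had a lower one.

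Levels of different members were compared per kb of listed span, as normalized CPM per kb averaged over the 4 libraries. SRSF2 was highest at 49.1, followed by SRSF7 at 35.9 and SRSF3 at 34.3. SRSF7 and SRSF3 were not apart, since their ranges over the libraries overlapped and SRSF7 was higher in 3 of 4 libraries. SRSF10 (16.0), SRSF9 (9.44), SRSF4 (7.57), SRSF11 (6.60) and SRSF5 (2.53) followed, and the ranges of these neighbours did not overlap. Per kb of RefSeq span SRSF5 moved from the eighth place to the fourth, at 23.5, while the other counted genes kept their order. That value divides all counts of the listed SRSF5 span, upstream reads included, by the shorter RefSeq length, so it may be too high. SRSF4 and SRSF11, whose exons make up 25.8% and 17.9% of long spans, were among the least dense. Dividing by exonic length leaves intron reads in the counts, so it raises genes with much intron and does not measure exon density. Per kb of exon SRSF7 came first at 70.0, ahead of SRSF3 at 54.2 and SRSF2 at 53.2, whose ranges overlapped. SRSF10 (22.4), SRSF5 (21.3) and SRSF9 (19.3) came last of the 8, and neighbours among these 3 overlapped too.

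The promoters of the 3 genes with an unadjusted p-value below 0.05 in edgeR without the block are shown for comparison. Of the 10 genes, 9 had a RefSeq promoter window of 300 bases, and for SRSF2 none was used. The windows of SRSF3, SRSF5 and SRSF7 are printed as above, at chr6:36594112-36594391 on the plus strand, chr14:69766892-69767171 on the plus strand and chr2:38751465-38751744 on the minus strand, with capitals on matches to any of 5 motifs searched on both strands: the TATA box with the letters TATAAA, the CCAAT box, the GC box with GGGCGG, the ETS motif with CCGGAAG and the CRE with TGACGTCA.
SRSF3: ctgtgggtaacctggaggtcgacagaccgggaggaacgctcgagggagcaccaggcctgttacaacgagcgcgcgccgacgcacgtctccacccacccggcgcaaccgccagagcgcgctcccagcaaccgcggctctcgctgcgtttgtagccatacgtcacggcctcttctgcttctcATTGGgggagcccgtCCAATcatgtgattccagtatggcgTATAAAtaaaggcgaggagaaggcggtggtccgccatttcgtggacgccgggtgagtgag
SRSF5: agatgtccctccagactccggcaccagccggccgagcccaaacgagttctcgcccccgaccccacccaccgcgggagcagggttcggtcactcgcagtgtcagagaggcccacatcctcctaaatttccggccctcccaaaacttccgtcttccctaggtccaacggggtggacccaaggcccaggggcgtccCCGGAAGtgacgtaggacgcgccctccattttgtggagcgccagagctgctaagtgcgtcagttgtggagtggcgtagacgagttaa
SRSF7: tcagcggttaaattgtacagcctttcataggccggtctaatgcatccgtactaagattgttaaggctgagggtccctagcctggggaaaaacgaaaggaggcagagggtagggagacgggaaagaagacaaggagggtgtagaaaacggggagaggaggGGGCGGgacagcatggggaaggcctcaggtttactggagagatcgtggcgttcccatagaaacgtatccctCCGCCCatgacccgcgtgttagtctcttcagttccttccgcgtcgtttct
The SRSF3 window held a TATA box match and a pair of CCAAT matches, the SRSF5 window an ETS match, and the SRSF7 window GC box matches alone. The 3 promoters therefore shared none of these letters. Over the 9 SR windows, the GC box occurred in 3, the ETS motif in 2, the TATA box and the CCAAT box in 1 each and the CRE in 0. Among 35116 RefSeq promoter windows of that length the shares were 45.0%, 10.3%, 11.5%, 34.6% and 1.85%, in the same order. GC content of the 9 windows ran from 55.0% for SRSF7 to 74.7% for SRSF4, where the median of all windows was 58.7%. A match of letters is a description and not evidence of binding.

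Genes that act on or with SR proteins were read from the same fit, in 5 lists. None of their genes passed an adjusted p-value of 0.05 in edgeR, but DESeq2 called 6 of them, all higher in T4A, where it called 3.9% of all tested genes. These were NXF1 (adjusted p = 6.57e-05 from DESeq2), SNRPA (0.00515), RBM39 (0.0119), TRA2B (0.0160), CCNL1 (0.0373) and SNRPA1 (0.0467), of which TRA2B, a splicing activator, was named after its values were seen. As for SRSF3, SRSF5 and SRSF7, these calls depend on the tool. The counts below at an unadjusted p-value under 0.05 are from edgeR and stand beside 7.45% of all tested genes higher and 8.02% lower. Of the 10 genes for SR kinases, phosphatase subunits and the import receptor TNPO3, CLK2 alone had an unadjusted p-value below 0.05, on the lower side, and the median log2 fold change was -0.06. CLK2, a nuclear kinase of SR tails, had 47.7 and 42.4 normalized CPM in WT and 37.4 and 35.6 in T4A (log2 fold change -0.30, SE 0.11, adjusted p = 0.256 from edgeR's test). Both T4A libraries were below both WT libraries for CLK2.

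Among 20 genes for SR-related proteins, the unadjusted p-value was below 0.05 for 4, all on the higher side (7.45% of all tested genes), and the median was 0.02. They were PNN, SREK1, CCNL1 and RBM39, with log2 fold changes of 0.20, 0.23, 0.24 and 0.29 and adjusted p-values between 0.305 and 0.319 from edgeR's test. RBM39, a U2AF-like factor, had 717 and 728 normalized CPM in WT and 928 and 836 in T4A. LUC7L2 was countable over 1.03% of its span. Both T4A libraries lay above both WT libraries for 11 of the 20 genes and below for 3, beside 24.8% and 24.7% of all tested genes.

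Of 18 genes for U1 and U2 snRNP and U2AF proteins, 3 had an unadjusted p-value below 0.05, of which 2 lay higher and 1 lower, counts near the shares of all tested genes (7.45% and 8.02%), and the median was 0.05. SNRPA, a protein of U1, had 126 and 115 normalized CPM in WT and 155 and 152 in T4A (log2 fold change 0.35, SE 0.09, adjusted p = 0.208 from edgeR's test). SNRPA1, a protein of U2, had a log2 fold change of 0.28 (SE 0.09). The lower gene, U2AF1, was listed with 18 and 14 counts in WT and 4 and 4 in T4A, and RefSeq also lists LOC102724594, a near copy of it, so its count of uniquely aligned reads is uncertain. With DESeq2, or with at least 10 counts in every library, 2 genes lay higher and 0 lower at that threshold.

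Of 15 genes of nonsense-mediated decay and the exon junction complex, 14 were tested, 1 had an unadjusted p-value below 0.05, and the median was -0.00311. It was EIF4A3, the core helicase of the exon junction complex (log2 fold change 0.28, SE 0.11). SMG8 was listed at 0 in all libraries and was countable over 0.223% of its span. Of 13 mRNA export genes 12 were tested, with 1 higher, 1 lower and a median of 0.02. NXF1, the receptor that SRSF3 and SRSF7 recruit, had 164 and 148 normalized CPM in WT and 226 and 209 in T4A. Its log2 fold change was 0.48 (SE 0.10), with an adjusted p of 0.173 in edgeR, 0.0473 in edgeR with no filter on low counts and 6.57e-05 in DESeq2. THOC7, a subunit of the THO complex, had 26.3 and 28.7 normalized CPM in WT and 21.1 and 23.1 in T4A, and DDX39B, inside a readthrough gene of its strand, was listed at 0.

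**Figure D4:**
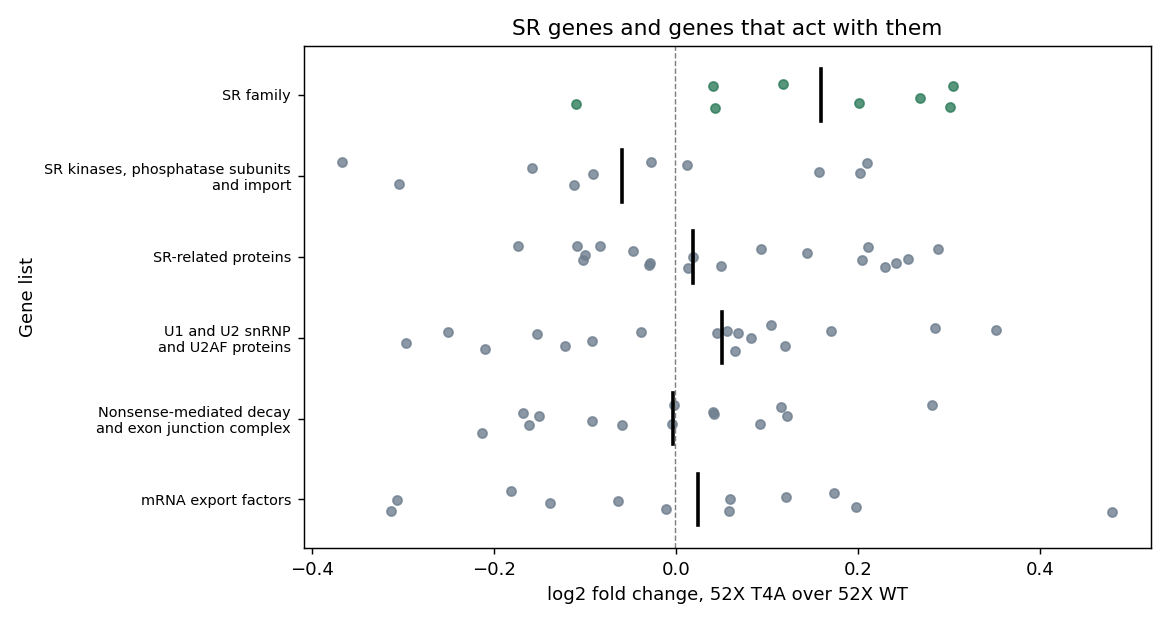
Points give the log2 fold change of 52X T4A over 52X WT for each tested gene of 6 lists of which at least 50% of the span could be counted, thick lines the median of each list and the dashed line that of all tested genes, with vertical scatter for legibility only. U2AF1, at -1.69, lies outside the plot. The SR genes have a median of 0.16 and the other lists medians between -0.06 and 0.05, and NXF1 is the rightmost point at 0.48. All these medians, that of the SR genes included, move when 1 library is left out.

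The libraries held between 33188536 and 45605027 counts. Log2 CPM correlated at 0.991 between the WT libraries and at 0.979 between the T4A libraries, and T4A replicate 1 correlated at 0.975 and 0.974 with the WT libraries. The 8 counted SR genes kept their direction without T4A replicate 1. POLR2A, which encodes RPB1, had 9613 and 8428 CPM in the WT libraries and 7429 and 8421 in the T4A libraries. Both T4A libraries thus lay below both WT libraries, and whether the groups differed in transfected RPB1 was not tested. The degron acts on the protein and both plasmids are for RPB1, so the POLR2A counts do not check the labels. Of 5 genes named as HEK293 markers, NEFL had 55.7 to 77.0 CPM, PAX2 and LHX1 had 1.75 to 3.80 CPM, and NEFM and INA had at most 0.153 CPM. The 10 genes found of 11 markers of other cell types summed to 4.66 and 3.90 CPM in the WT libraries and 5.76 and 5.75 in the T4A libraries. Both T4A sums lay above both WT sums, as for 7 SR genes. Among the single markers this held for CD3E and TYR alone. For COL1A1, the highest of them, the groups overlapped (2.29 and 2.02 CPM in WT, 1.83 and 3.07 in T4A). The part of these markers in the SR values was not tested. In bulk libraries, fewer cells that make an RNA and less of it per cell cannot be told apart, and counts scaled to a library's own total do not show a change of all RNA together.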

How the data were processed

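TT-seq was measured in 4 libraries of RPB1 degron HEK293 cells, grouped by the transfected plasmid named in their titles. The authors deposited 1 table of raw counts per gene, made with featureCounts from uniquely aligned reads. The submitters' processing notes name GRCh38, cutadapt 4.6, STAR 2.7.11b, deepTools 3.5.6, FastQC and Picard. The strand and pair settings are not given in the sources used here. If reads over 2 genes were left out, the counts of SRSF2 require counting by strand. The listed length equals the span for all 60708 genes, so introns were counted. Between 82.1% and 86.2% of the counts from 1 to 20 were even, as when both reads of a pair are counted, so fragments may number about one per 2 counts. SR pseudogenes by symbol (11 genes) held at most 42 counts.

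Gene names, types and exonic lengths came from a GENCODE annotation lifted to GRCh37, by stable identifier (58742 genes matched). Coordinates are those of the table, and 99.979% of 19039 protein-coding genes overlapped the RefSeq gene of that symbol in GRCh38.p14.

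Counts were tested with edgeR 4.0.16 in R 4.3.3 (TMM, default filter, quasi-likelihood test, Benjamini-Hochberg over all tested genes, threshold 0.05), with DESeq2 1.42.0 as an alternative. Standard errors came from the F statistic. The script was tested on simulated data. The members and lists were chosen with earlier results of these data known. Named were all members, up to 4 genes a list with the lowest unadjusted p-value below 0.05, genes listed at 0, POLR2A and genes that overlap a member.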

Additional observations from a re-analysis of the deposited data

How the results depend on the processing

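Against 0 SR genes past the threshold (3 at an unadjusted p-value below 0.05), DESeq2 called 3, SRSF3, SRSF5 and SRSF7, and the other alternatives without a library left out called 0, with a lowest adjusted p-value of 0.108 among them. With 1 library left out the count ran from 0 to 3. The 3 calls arose without T4A replicate 2 and were SRSF3 (log2 fold change 0.34), SRSF1 (-6.83) and SRSF6 (-8.77). The calls of SRSF1 and SRSF6 rest on T4A replicate 1 alone, where both are listed at 0. A lone library is there assumed to vary like the other group. Without T4A replicate 1, SRSF6 turned to 0.25, the one reversal among the 10 genes. For the 8 counted genes no alternative changed the sign.

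Over all tested genes 1 passed, against 910 with DESeq2, 195 with scaling to mitochondrially encoded genes, 150 with no filter on low counts, 2 with the gene length trend removed, 533 with the replicate block and 0 with the block and the length trend removed together. It ran from 0 to 3466 with 1 library left out, highest without T4A replicate 2. Same-numbered libraries did not deviate together (correlation 0.00498). With 2 libraries a group this cannot show whether equal numbers share a culture or day. Under the replicate block no SR gene passed, and the lowest adjusted p-value was 0.123, that of SRSF6.

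The median log2 fold change of the 10 SR genes less that of all tested genes was 0.0810. It was 0.123 with protein-coding genes only, 0.0969 with the length trend removed, 0.0988 with the block and the trend removed, and -2.85e-05 with no filter. It was 0.170 with at least 10 counts in every library, which drops SRSF1 and SRSF6, and 0.160 with the 8 counted genes, an alternative chosen after seeing the data. With 1 library left out it ran from 0.0250 to 0.130. The median log2 fold changes of the 5 other lists less that of all tested genes moved with single libraries. With 1 library left out they ran from -0.124 to -0.0326 for the kinases (-0.0587 with all libraries), -0.00422 to 0.0270 for SR-related proteins (0.0170), 0.00217 to 0.0438 for U1, U2 and U2AF (0.0513), -0.0472 to 0.00855 for nonsense-mediated decay (-0.00235) and -0.0273 to 0.00296 for export (0.0245). The sign turned without T4A replicate 2 for SR-related proteins, without T4A replicate 1 for nonsense-mediated decay, and for export without WT replicate 1, WT replicate 2 or T4A replicate 2. With no filter all 5 lay below 0, from -0.140 to -0.0298. Of these genes DESeq2 called 6 and edgeR with no filter called NXF1. Without T4A replicate 2 edgeR called PPP1CA, SRRM2, U2AF2, SF3A2 and SF3B4 lower and RBM39, SNRPA, SNRPA1, EIF4A3 and NXF1 higher, named for these calls. For the changes not explained by the genes left in, the cause was not tested.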
